A study of Rattus norvegicus with 6 samples.

Results

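The choroid plexus of the newborn rat was compared with that of the adult across all genes that the array could measure, to describe what had not yet reached the adult state shortly after birth. The data are 4 of the 6 arrays of the series, 2 of plexuses taken on postnatal day 2 (P2) and 2 of adult plexuses, all from the lateral ventricles of Sprague-Dawley rats with no treatment and no engineered allele. Each array held RNA of a separate pool, made by the study's methods from 5 newborn or 3 adult animals, whereas the labels speak of batches of 6 to 10 plexuses. The adult rats were males, and the sex of the pups is not given in the sources used here. Members of the comparison were the probe sets, other than controls, whose mean intensity reached 100 units in at least 1 of the 2 stages. They numbered 17341 of the 31099 probe sets on the array, and those with a single assigned gene stood for 10194 of 14218 genes. The genes of transporters, junctions and detoxifying enzymes on which the study itself reported were counted with all others but are not described.

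The choroid plexus is a fringe of highly vascular tissue that hangs in the brain ventricles. A continuous layer of ciliated epithelial cells covers a stroma of fibroblasts, macrophages and leaky capillaries, and secretes the cerebrospinal fluid (CSF) by moving sodium, chloride, bicarbonate and water from blood to ventricle. Tight junctions between the epithelial cells form the barrier between blood and CSF, while the capillaries beneath are open. The tissue forms early in the embryo by folding of the roof of the brain together with mesenchyme, and it grows on after birth. Each pool is whole tissue, so that a lower level of a transcript may reflect fewer cells of a type or less RNA per cell, which cannot be told apart here.

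Intensity is the brightness of a probe set after the authors scaled each array to a common level, and 100 units lie near the background of the array. Differences are given as log2 of P2 over adult, or as folds. Where both pools of a stage read under 100 units, the fold is a bound, set as the level of the other stage over 100 units. A gene was called where its adjusted p in the limma fit lay under 0.05, and n is 2 pools per stage throughout. The number of arrays limits the precision. The pools of a stage were alike, with correlations of log2 values of 0.983 at P2 and 0.980 in the adult, and of the probe sets that reached 100 units in each of a stage's pools 99.56% (P2) and 99.81% (adult) differed by less than 2-fold between them.

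Most differences between the stages were small, and the large ones were mostly of genes higher in the newborn. Of the 17341 probe sets, 4798 (27.7%) were higher and 3939 (22.7%) lower at P2. Of the 10194 genes, 2954 (29.0%) were higher and 2293 (22.5%) lower at P2, and the median log2 difference over all genes was 0.04. These shares are the background for the counts below. Once values under 100 units were raised to 100, 84.6% of genes lay within 2-fold between the stages. At least 4-fold separated 337 genes that were higher and 73 that were lower, and at least 8-fold separated 91 and 20. The adult pools read under 100 units for 705 of the genes that were higher at P2, and the P2 pools did so for 158 of those that were lower.

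**Figure D1:**
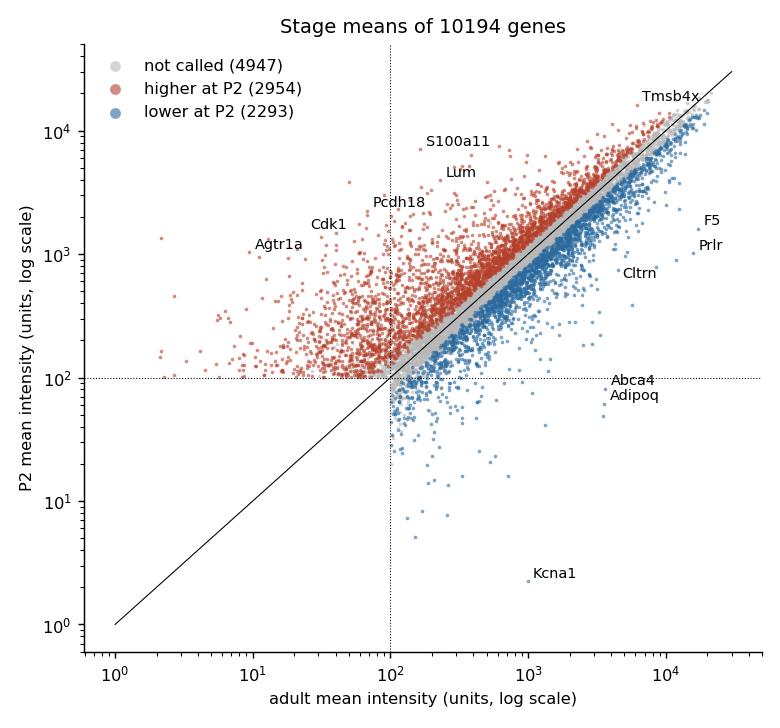
Mean intensity of each of 10194 genes in the adult (horizontal axis, units, log scale) and at P2 (vertical axis, units, log scale), 1 point per gene, coloured by its call, with the diagonal at equal levels and dotted lines at 100 units. The cloud widens at low adult levels, where some of the 2954 genes called higher reach far above the diagonal. Few of the 2293 called lower lie far below it.

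The division into higher and lower depends on the scale. The median probe set read 125.6 and 120.4 units at P2 and 106.1 and 100.1 units in the adult. With each array centred on that median, the median gene moved from 0.04 to -0.21 and the counts became 1932 higher and 3826 lower. Centred on the median of the tested probe sets alone, they were 2479 and 2896. Differences smaller than this shift therefore have no settled direction, and lists whose balance turns with the scale are named as such below. A measure of RNA quality also moved with age. The control probe set at the 5′ end of the β-actin transcript read 5631 and 6150 units at P2 and 2685 and 2122 in the adult, against 14298, 12846, 12309 and 11324 at its 3′ end, while the probe sets of GAPDH read alike at both ends. What this had to do with any result was not tested. Of 781 called members of the 46 gene lists used below, 554 kept their call without any 1 of the 4 arrays. These lists were chosen with earlier results of these data known, so their counts describe the data and are not tests.

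**Figure D2:**
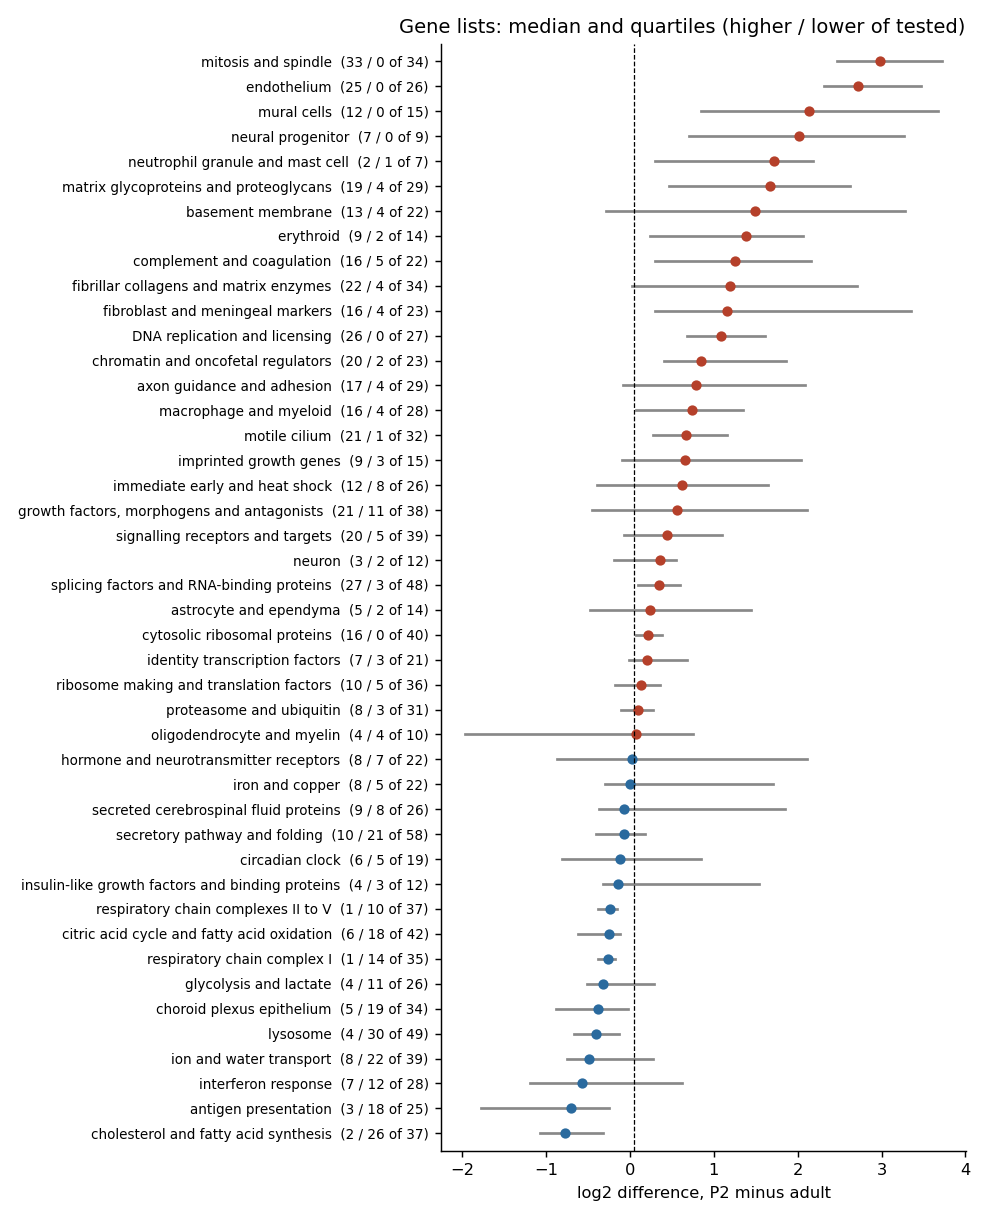
Median (point) and quartiles (line) of the log2 difference, P2 minus adult, of the genes of each list with at least 7 tested members, with the numbers higher, lower and tested beside the name and a dashed line at the median of all genes. Mitosis, vessel, progenitor and matrix lists lie far to the right, and cholesterol synthesis, antigen presentation, interferon, ion transport and lysosome lists to the left.

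The newborn plexus carried the transcripts of dividing cells, many of which were near background in the adult. Cells license their replication origins with the MCM helicase in G1, copy DNA in S phase, and then condense and separate chromosomes with the mitotic kinases, condensin and spindle motors. Of 27 tested genes of DNA replication and licensing 26 were higher at P2 and 0 lower, with a median of 1.08. Of 34 genes of mitosis and the spindle 33 were higher and 0 lower, with a median of 2.98. The exceptions, which were not called, were Dut, the dUTPase that keeps uracil out of DNA, and Ccnd2, cyclin D2, at 3830.5 and 4627 against 3776 and 3457 units. Both lists stood far above the background of 29.0% higher, and under every scaling that was tried no member of either was lower.

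Cdk1, the kinase that drives entry into mitosis, read 1659 and 1865 units at P2 and 57.8 and 59.5 units in the adult, and was at least 17.6-fold higher (adjusted p = 6.27e-05). Its partner cyclin Ccnb2 read 1275 and 1340.2 units at P2 and 94.5 and 88.7 units in the adult (at least 13.1-fold, adjusted p = 6.27e-05). For both, the P2 pools were high and the adult pools lay under 100 units. Racgap1 and Ect2, which place the cleavage furrow, read 1029 and 1006 against 60.4 and 67.5 units and 1217 and 1300.1 against 106 and 104 units. The proliferation marker Mki67 read 632 and 519.9 units at P2 and 58.8 and 38.2 units in the adult, at least 5.73-fold higher. Cyclin D1, Ccnd1, which carries growth signals into the cycle, was 8.91-fold higher, at 2559 and 2909 against 302 and 310.3 units. In none of these genes did the stages overlap. Most of the named genes were picked by the size of their difference, so such gaps, here and below, follow from that choice. Mcm6, a subunit of the helicase, read 543 and 429.9 units at P2 and 46.8 and 45.3 units in the adult (at least 4.83-fold higher). Cdt1, which loads the helicase, read 371 and 326 units at P2 and 66.3 and 63.7 units in the adult (at least 3.48-fold higher). Tk1, the thymidine kinase of S phase, was 4.23-fold higher at 645 and 657 against 164 and 145 units, and the helicase subunit Mcm4 3.36-fold higher at 667 and 594 against 204 and 172 units. Pcna, the sliding clamp that also serves DNA repair, was 1.54-fold higher, at 4577 and 4945 against 3101 and 3082 units (adjusted p = 0.00349).

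These genes are shown with their promoters, because genes of the same phase are known to share short elements there. E2F factors bind TTTCCCGC and its variants and open the replication program at the start of S phase. The cell cycle homology region, CHR (TTTGAA or TTCGAA), often placed near a CCAAT box, is bound by the DREAM and B-MYB complexes that time mitotic genes. The stretches run from 250 bases before to 50 bases after the transcription start in RefSeq on GRCr8, and capitals mark the motif named for each gene, on either strand. Other motifs in these stretches are left in lower case. In the replication genes Mcm5 (chr19:13488563-13488862, plus strand) and Mcm6 (chr13:42404303-42404602, minus strand) the capitals are E2F motifs (TTTCCCGC, TTTGGCGC, TTTCGCGC or their complements).
Mcm5: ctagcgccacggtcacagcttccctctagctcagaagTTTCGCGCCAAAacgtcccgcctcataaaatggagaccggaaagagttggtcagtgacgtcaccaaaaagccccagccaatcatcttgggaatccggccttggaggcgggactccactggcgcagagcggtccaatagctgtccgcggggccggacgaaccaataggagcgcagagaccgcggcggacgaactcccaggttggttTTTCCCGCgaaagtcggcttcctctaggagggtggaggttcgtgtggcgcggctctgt
Mcm6: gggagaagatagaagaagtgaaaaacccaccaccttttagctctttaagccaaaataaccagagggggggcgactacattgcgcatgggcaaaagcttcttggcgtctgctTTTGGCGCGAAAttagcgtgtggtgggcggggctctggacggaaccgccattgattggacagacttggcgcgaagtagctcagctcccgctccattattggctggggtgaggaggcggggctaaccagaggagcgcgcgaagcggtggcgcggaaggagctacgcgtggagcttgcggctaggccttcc
In the mitotic genes Cdk1 (chr20:19265043-19265342, plus strand) and Prc1 (chr1:143659231-143659530, plus strand), Prc1 being the crosslinker of the central spindle, they are CHR motifs and CCAAT boxes.
Cdk1: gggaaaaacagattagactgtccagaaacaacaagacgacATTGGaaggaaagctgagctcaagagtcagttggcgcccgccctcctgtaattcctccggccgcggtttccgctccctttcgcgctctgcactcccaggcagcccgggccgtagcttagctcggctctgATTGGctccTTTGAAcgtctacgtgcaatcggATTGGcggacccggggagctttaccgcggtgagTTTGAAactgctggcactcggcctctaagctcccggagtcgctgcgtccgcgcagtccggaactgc
Prc1: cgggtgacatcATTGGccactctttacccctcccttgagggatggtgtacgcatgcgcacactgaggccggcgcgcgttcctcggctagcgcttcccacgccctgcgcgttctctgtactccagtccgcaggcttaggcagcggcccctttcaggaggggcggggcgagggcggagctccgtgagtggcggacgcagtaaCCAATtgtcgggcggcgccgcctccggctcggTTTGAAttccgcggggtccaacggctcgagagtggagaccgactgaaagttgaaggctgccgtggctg
Prc1 read 1138 and 1047 units at P2 and 167 and 154 units in the adult, and Mcm5 281 and 219.5 against 45.9 and 78.9 units. Of the 26 replication genes with a promoter in the table, 13 held an E2F motif, against 1 of 28 mitotic genes (3.57%), 3.61% of the promoters of all tested genes and 1.82% of all promoters. The mitotic gene that held it was Cdk1, whose E2F motif (TTTCGCGC) stands in lower case above beside its CHR and CCAAT motifs. A CHR motif stood in 18 of the 28 mitotic promoters (64.3%) and in 4 of the 26 replication promoters (15.4%), against 1110 of the 8555 promoters of tested genes and 19.5% of all. CCAAT boxes were common in both lists, in 21 of 28 and 17 of 26 promoters, against 38.2% of tested genes. They were not particular to these lists. CCAAT boxes also stood in 15 of 23 promoters of antigen presentation and 20 of 29 of cholesterol and fatty acid synthesis, lists mostly lower at P2. A match of letters is not a bound site, and these shares carry no test.

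**Figure D3:**
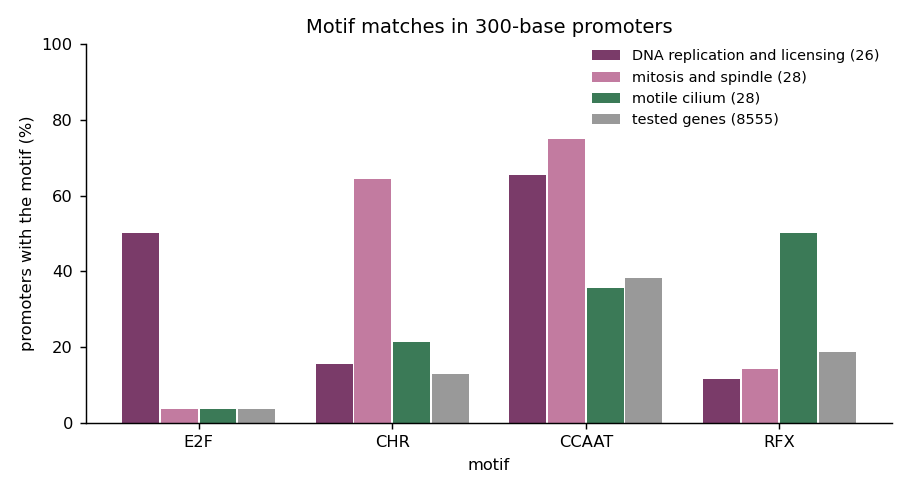
Share of promoters of 300 bases (vertical axis, %) that hold each motif on either strand, for the genes of 3 lists and for all tested genes with a promoter, whose numbers stand in the key. Replication genes are high for E2F, mitotic genes for CHR, and genes of the motile cilium for RFX.

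Most tested genes of a list of chromatin and oncofetal regulators were higher in the newborn as well. Of 23 tested chromatin and oncofetal regulators 20 were higher and 2 lower, with a median of 0.85. The 2 lower ones, Smarca5 and Cbx5, lost their calls without P2 pool 1, P2 pool 2 or adult pool 2. Marcks, a membrane-bound regulator of actin, read 6289 and 6286 units at P2 and 366 and 408 units in the adult (16.3-fold higher, adjusted p = 6.27e-05), and its relative Marcksl1 2765 and 2732 against 489 and 579 units. Igf2bp2, an RNA-binding protein of fetal tissues that stabilizes growth transcripts, read 1459.6 and 1223 units at P2 and 149.8 and 172 units in the adult (8.32-fold higher). Its relative Igf2bp3 was low at P2, at 174 and 177 units, and at background in the adult. Stmn1, a tubulin-binding protein, was higher at 6226 and 6147 against 1352 and 1285 units, and Tubb2b, a tubulin isotype, was higher at 649.6 and 612 against 101 and 74.2 units. Hmgn2, a nucleosome-binding protein, was 2.26-fold higher at 10482 and 9729 against 4612 and 4329 units, and the histone variant H2az1 1.71-fold higher. Ezh2, the methyltransferase of the Polycomb complex, was 2.75-fold higher at 432 and 448 against 143 and 179 units, while its partner Suz12 read 1838 and 1843 against 1670.2 and 1677 units and was not called.

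Imprinted growth genes, which form a network that slows down as the young animal stops growing, were divided. Of 15 tested, 9 were higher and 3 lower, the latter 1 without P2 pool 2. H19, a noncoding RNA made beside Igf2, read 816 and 941 units at P2 and 62.6 and 42.7 units in the adult (at least 8.76-fold higher, adjusted p = 0.000219). Grb10, an inhibitor of insulin signalling, read 2172 and 2052 units at P2 and 196 and 94.4 units in the adult (15.5-fold higher). Mest read 6098 and 6579 against 986 and 962 units and Ndn 5634 and 5133 against 2139.9 and 1998 units, with both P2 pools above both adult pools in all 4 genes. Igf2 itself was slightly lower in the newborn, at 12865 and 12573 against 17207 and 16266 units (log2 difference -0.40), a call that was lost without P2 pool 1, P2 pool 2 or adult pool 1 (-0.41 to -0.35). Its scavenging receptor Igf2r was 2.23-fold lower at 1597 and 1262 against 3318 and 3032 units, and Cdkn1c and Gnas were not called.

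Around the insulin-like growth factors, 4 of 12 tested genes were higher and 3 lower, shares near the background. These counts turned to 4 and 5 with each array centred on its median. Igf1 read 972 and 819.7 units at P2 and 135 and 141 units in the adult (6.47-fold higher at P2), and the receptor Igf1r 1329 and 1085 against 1204 and 1219.8 units, which was not called, though lower on another probe set. Among the binding proteins, Igfbp3 read 1874 and 1579 units at P2 and 77.7 and 107 units in the adult (18.9-fold higher, adjusted p = 0.000139) and Igfbp7 10458 and 12033 against 3961 and 4130.0 units, whereas Igfbp2, which the plexus secretes, read 18142 and 16633 against 21065 and 18207 units and was not called. The insulin receptor Insr was 3.06-fold lower, at 266 and 162 against 582 and 695 units. Igfbp4 was 3.28-fold higher, at 305 and 306 against 112 and 77.2 units.

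Of 38 growth factors, morphogens and their antagonists 21 were higher and 11 lower at P2, the latter 7 without P2 pool 2 or adult pool 2. Ptn, the heparin-binding growth factor pleiotrophin, read 4761 and 4956 units at P2 and 307 and 338 units in the adult (15.1-fold higher, adjusted p = 6.27e-05), while the related midkine, Mdk, was lower at P2, at 11094 and 11373 against 19478 and 18593 units (log2 difference -0.76, SE 0.08). Kitlg, the ligand of KIT, read 609.7 and 698 units at P2 and 98.7 and 100.2 units in the adult (6.56-fold higher), and Pdgfa, which attracts stromal cells, 1658 and 1977 against 521 and 689 units. Vegfc, a growth factor of endothelium, was 4.45-fold higher at 819 and 835 against 173 and 199 units, but Vegfa, the main factor that keeps plexus capillaries fenestrated, read 1734 and 2014 against 1869.9 and 1793 units and was not called. Ccn2, a matrix-bound target of TGF-beta and YAP signalling, was 5.01-fold higher. The largest of the differences the other way was that of Tgfb2, at 397 and 382 units at P2 and 5479 and 5777 units in the adult (14.5-fold lower, adjusted p = 6.27e-05). Dkk3, a secreted protein of the Dickkopf family, was 3.76-fold lower at 1854 and 1721 against 6850.1 and 6587 units. Gdf15, a stress-induced hormone of the TGF-beta family, was 3.36-fold lower at 260.1 and 353 against 1018 and 1017 units. Of the bone morphogenetic proteins, which specify the plexus in the embryo, Bmp4 was higher (log2 difference 0.61), a call lost without either P2 pool or adult pool 2 (0.45 to 0.65), Bmp6 and Bmp7 were not called (log2 differences 0.11 and 0.10), and Bmp2 was 2.75-fold lower.

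Among signalling receptors and response genes 20 of 39 were higher and 5 lower, the latter 8 without P2 pool 1. The frizzled receptor Fzd1 read 2523 and 2116 units at P2 and 331 and 346 units in the adult (6.83-fold higher) and Notch1 682 and 437 units at P2 and 121 and 122 units in the adult (4.5-fold higher). The FGF feedback inhibitor Spry1 read 542 and 619 units at P2 and 73 and 58.4 units in the adult (at least 5.79-fold higher), and Dusp6, which switches off ERK, 1723 and 1955 against 613 and 349 units. The BMP response gene Id3 was 1.84-fold higher at 4450.4 and 5300.0 against 2628 and 2661 units, whereas Id2, Id4, Smad7 and Hes1 were not called. Of the receptors that were lower, Fzd2 read 352 and 464 against 899 and 1052 units and Fgfr2 4733 and 4879 against 7583 and 6814 units. Lrp6, the coreceptor of Wnt proteins, was 1.87-fold lower at 113 and 98.1 against 210.0 and 184 units.

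The newborn plexus was rich in transcripts of the fibrous matrix, and a smaller set of matrix genes was more abundant in the adult. Of 34 tested genes of fibrillar collagens and matrix enzymes 22 were higher and 4 lower at P2 (median 1.20), and of 29 glycoproteins and proteoglycans 19 were higher and 4 lower (median 1.67). Col14a1, a collagen that associates with fibrils, read 4219 and 3409 units at P2 and 58.8 and 41.2 units in the adult (at least 37.9-fold higher, adjusted p = 7.66e-05), with the adult pools at background. Col3a1, of the pliable fibrils of young tissue, read 5541 and 4697 units at P2 and 338 and 401 units in the adult (13.8-fold higher), and Col1a2, of mature fibrils, 5481 and 4072 units at P2 and 1171 and 1209.8 units in the adult (3.97-fold higher). Col6a3, of the beaded filaments around cells, was 15-fold higher at 2109.9 and 959.9 against 81.6 and 110.5 units, and Col1a1, the partner of Col1a2, 7.17-fold higher at 1209 and 734 against 115 and 151 units. Timp1, an inhibitor of matrix proteases, was 6.56-fold higher. The elastic fibre gene Mfap2 read 923 and 1101 against 50.3 and 68.4 units, and the adult pools again lay under 100 units. Among small leucine-rich proteoglycans, which space collagen fibrils, Lum read 3845 and 4046 units at P2 and 178 and 278 units in the adult (17.8-fold higher, adjusted p = 0.000232), and Dcn 2910.3 and 3153 against 258 and 337 units. Spon1, a matrix protein of the embryonic floor plate, was at least 13.1-fold higher at 1330.1 and 1293 against 62.7 and 62.4 units. Of the other leucine-rich proteoglycans, Fmod and Prelp were lower, with Fmod at 4353 and 3637 against 10976 and 10234 units and Prelp at 751 and 639 against 2829 and 2664 units, while Ogn was not called at 6622 and 6885 against 7497 and 8298 units and was higher on another of its probe sets. Thbs2, an inhibitor of vessel growth, was 8.74-fold lower, at 152 and 129 against 1277 and 1169.8 units, and Col8a1, a network collagen, 3.12-fold lower at 2653 and 2588 against 7839 and 8509 units. The chaperone Serpinh1, which folds procollagen, was 1.66-fold higher, whereas Mmp2 and Mmp14, the proteases that remodel matrix, were not called, Mmp14 being lower on another probe set. The 4 lower genes of the collagen list were 7 with each array centred on its median, 2 without P2 pool 1 or adult pool 1 and 1 without P2 pool 2 or adult pool 2, Col8a1 being the one that stayed.

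The basement membrane, the sheet on which epithelium and endothelium rest, had 22 tested genes, of which 13 were higher and 4 lower, with a median of 1.49. Col4a1, a collagen IV chain, and Lama4, a laminin chain of vessels, read 3393 and 2640.5 units at P2 and 88.7 and 91.8 units in the adult (at least 29.9-fold higher, adjusted p = 6.27e-05) and 1402 and 984 units at P2 and 21.7 and 46.6 units in the adult (at least 11.7-fold higher). Nid1, which ties laminin to collagen IV, read 5315 and 4759.6 units at P2 and 277 and 299.7 units in the adult (17.5-fold higher). Col4a2, which assembles with Col4a1, read 1185 and 817 against 88.1 and 87.7 units, and the collagen IV chains Col4a5 and Col4a6 6893 and 5858 against 3268 and 3193 units and 802 and 532 against 57.3 and 45.4 units, 1.97-fold and at least 6.53-fold higher. In each of them both P2 pools were high and did not overlap the adult pools. The shared chain Lamc1 was 3.77-fold higher and Lamb1 read 3156 and 2656 against 629 and 341 units. The 4 lower genes were 3 laminin chains and an integrin, with Lama3 at 483 and 478 units at P2 and 1539.5 and 1621 units in the adult (3.29-fold lower), Lama2 at 3339 and 3095 against 5542 and 5474 units, Lamb2 at 3035 and 2279 against 4182 and 4086 units and Itgb4, of the epithelial anchor, at 169 and 159.5 against 303 and 243 units, a call lost without P2 pool 2 (log2 difference -0.68). The call of Lamb2 (log2 difference -0.65) was lost without P2 pool 2 or either adult pool (-0.67 to -0.45). Lama5 and the proteoglycan Hspg2 were not called.

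Markers of fibroblasts and of the meninges went along with the matrix genes, 16 of 23 tested being higher and 4 lower, the latter 2 without adult pool 1 and 1 without adult pool 2. Their summed level was 48883 and 44096 units at P2 and 36254 and 36491 in the adult. Cdh11, the cadherin of mesenchyme, read 4949 and 5360.2 units at P2 and 268 and 394 units in the adult (15.9-fold higher) and Vim, vimentin, 7742 and 6237 units at P2 and 740.5 and 700.2 units in the adult (9.65-fold higher). Cthrc1, made by migrating fibroblasts, read 1159.5 and 1011 units at P2 and 72.5 and 8.21 units in the adult (at least 10.8-fold higher). The general fibroblast marker Pdgfra went the other way, at 3641 and 2923 against 4965 and 5210.1 units, a call lost without adult pool 2, and so did Ptgds, the prostaglandin D synthase of arachnoid and plexus, at 14549 and 13126 against 20262 and 19292 units.

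Vessel genes were higher in the newborn with hardly an exception. Of 26 tested endothelial markers 25 were higher and 0 lower (median 2.72), and of 15 markers of mural cells, the pericytes and smooth muscle around vessels, 12 were higher and 0 lower (median 2.14), or 11 and 2 with each array centred on its median. The summed level of the endothelial list was 21991 and 20804 units at P2 and 3223 and 3297 in the adult, and that of the mural list 10422 and 10192 against 3822 and 3778. Ets1, a transcription factor of endothelium, read 1946 and 1788 units at P2 and 90 and 122 units in the adult (17.8-fold higher, adjusted p = 0.000114). Emcn, a surface mucin of capillaries, read 2112 and 2298 units at P2 and 188 and 191 units in the adult (11.6-fold higher) and Tek, the angiopoietin receptor, 1088 and 1056 units at P2 and 177 and 177 units in the adult (6.04-fold higher). All were high in both P2 pools and did not overlap the adult. Genes of growing vessel tips were among them: Angpt2, which loosens vessel walls, read 1316 and 872 units at P2 and 19.1 and 22.9 units in the adult, and Apln 460.4 and 451 units at P2 and 24.4 and 7.92 units in the adult, at least 10.7-fold and at least 4.56-fold higher. Plvap, which spans the diaphragms of fenestrated capillaries, read 1189 and 1178 against 173 and 176 units. The endothelial lectin Clec14a was at least 10.4-fold higher at 1037 and 1036 against 51.8 and 68.7 units. Kdr, the main VEGF receptor, was 3.08-fold higher at 3414 and 3013 against 1050.5 and 1034 units. Vwf, stored in endothelial granules, read 152 and 71.6 against 86.4 and 44.5 units and was not called.

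Among mural genes, the pericyte marker Rgs5 read 1494 and 1830.0 units at P2 and 127 and 115 units in the adult (13.7-fold higher), and the kinase of smooth muscle contraction Mylk 1373 and 1256 units at P2 and 94.6 and 112 units in the adult (12.8-fold higher). Pdgfrb, the receptor by which pericytes are recruited, read 716 and 572 units at P2 and 138 and 181 units in the adult (4.06-fold higher). Mcam, an adhesion molecule of vessel walls, was 7.68-fold higher at 652 and 602 against 121 and 54.9 units. Myh11 and Tpm2, genes of mature smooth muscle, were not called, at 302 and 220.2 against 351 and 317 units and 1224 and 1162 against 1339.9 and 1234 units. Acta2 and Des of the same list were higher (log2 differences 1.00 and 0.69), the call of Acta2 being lost without P2 pool 1 (0.88).

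**Figure D4:**
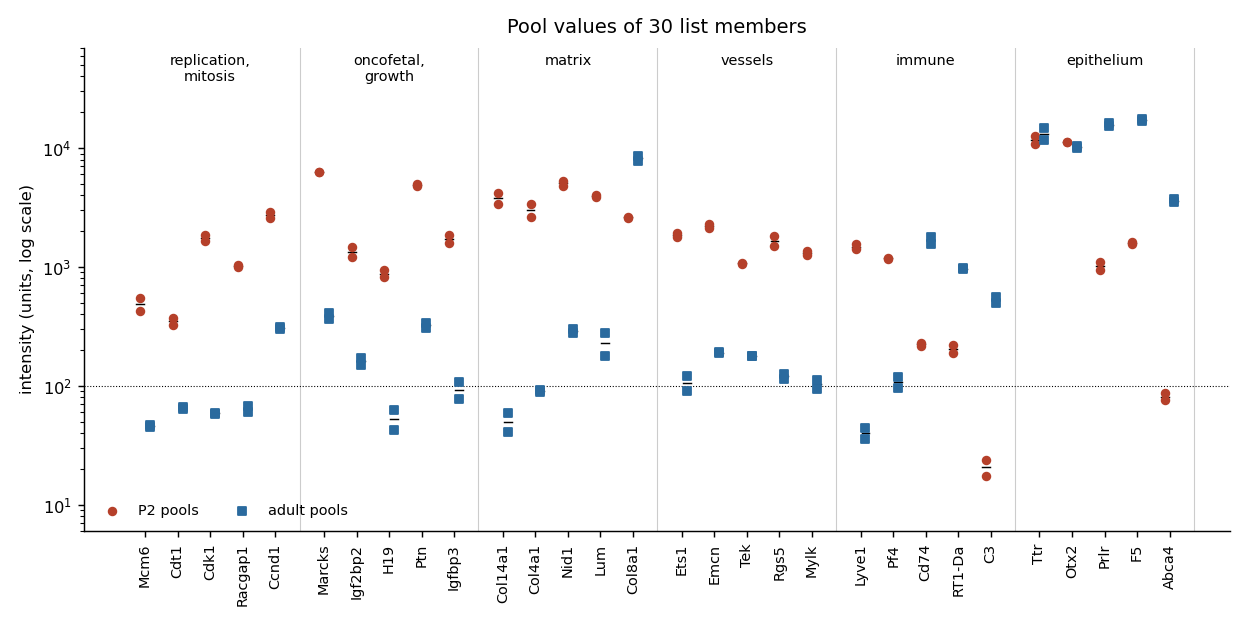
Intensity (vertical axis, units, log scale) of 30 list members in the P2 pools (circles) and the adult pools (squares), with a short line at each stage mean and a dotted line at 100 units. The points of a stage lie close together, the stages are apart in all genes but Ttr, and most genes of the left panels fall to or near 100 units in the adult.

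Blood cells and resident immune cells left different traces. Of 14 erythroid genes 9 were higher and 2 lower at P2, the latter being Tfrc and Car2, which the epithelium expresses too. The globin Hbb read 17435 and 16128 against 14475 and 14045 units and was not called. Globin probe sets may take up transcripts of neighbouring copies. Alas2, which starts haem synthesis in red cells, read 1005 and 1168 units at P2 and 220.0 and 275 units in the adult (4.4-fold higher), and Ahsp, the chaperone of free alpha globin, 689.7 and 494 units at P2 and 82 and 106 units in the adult (6.27-fold higher). The embryonic globin Hbe1 was faint, at 176 and 185 against 28 and 7.46 units. Only 7 of 20 genes of neutrophils and mast cells with a probe set, and 1 of 15 of lymphocytes, reached a mean of 100 units in either stage.

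Macrophage markers were 16 higher and 4 lower among 28 tested, with a summed level of 13777 and 12024 units at P2 and 15229 and 15001 in the adult. The greatest differences were those of Lyve1, Pf4 and Mrc1, which mark perivascular and stromal macrophages among other cells. Lyve1 read 1402 and 1556 units at P2 and 35.5 and 44.5 units in the adult (at least 14.8-fold higher, adjusted p = 6.27e-05), Pf4 1180.0 and 1176 units at P2 and 95.6 and 119 units in the adult (11.1-fold higher) and Mrc1 964 and 614 units at P2 and 39.7 and 25.7 units in the adult (at least 7.7-fold higher). Lyve1 is made by lymphatic vessels as well. Of the common macrophage genes, Csf1r, the receptor of the main macrophage growth factor, read 351 and 283 against 288 and 287 units and Ptprc, CD45, 139 and 99.7 against 98.3 and 82.3 units, both not called. The 4 lower ones were the lysozyme Lyz2 at 1988 and 1421 units at P2 and 6048 and 6018 units in the adult (3.59-fold lower), Gpnmb at 723 and 404 units at P2 and 2920.4 and 2834 units in the adult (5.32-fold lower), the protease Ctss at 893 and 674 against 1879 and 1848 units and the Fc receptor Fcgr3a at 91.2 and 80.3 against 235 and 201 units (at least 2.18-fold lower). Other lysosomal or activation genes of the list were higher, such as Cd68, at least 1.65-fold higher, and Cd14, 2.11-fold higher at 608 and 680.1 against 294 and 318 units, and so was the scavenger receptor Stab1, at least 3-fold at 342 and 263 against 84.5 and 68.1 units. The call of Cd68 was lost without adult pool 2 (log2 difference 1.12).

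Antigen presentation was the immune list with the most genes below their adult level. Class I molecules show peptides of the cell itself, which the proteasome makes and the TAP pump loads, and class II molecules, held by the invariant chain CD74, show peptides taken up from outside. Of 25 tested genes 18 were lower and 3 higher at P2, with a median of -0.70. The 3 higher ones, RT1-DMa, RT1-DMb and Psmb10, were 1 without P2 pool 1, P2 pool 2 or adult pool 2 and with each array centred on its median. Cd74 read 231 and 215 units at P2 and 1556 and 1771 units in the adult (7.45-fold lower, adjusted p = 0.000901), and the class II chain RT1-Da 189 and 219 units at P2 and 983 and 954 units in the adult (4.76-fold lower). RT1-Ba, another class II chain, read 61.7 and 79.4 against 459 and 451 units. For all 3, both newborn pools lay far below both adult pools. Among class I genes the pump subunit Tap2 was 2.77-fold lower at 216 and 195 against 622 and 520.2 units, the class I chain RT1-CE10 3.44-fold lower, and B2m, beta-2 microglobulin, 1.51-fold lower at 11231 and 9689 against 15387 and 16023 units. The RT1 genes are near-identical copies, and their probe sets may not tell them apart. RT1-DMb, which edits class II peptides, was 2.18-fold higher at 951 and 924 against 375 and 493 units.

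Interferon-induced genes were mixed, 7 of 28 being higher and 12 lower, or 7 and 18 with each array centred on its median. The ubiquitin-like Isg15 read 23.2 and 71 units at P2 and 400.2 and 432 units in the adult (at least 4.16-fold lower), the tetherin Bst2 1476 and 1876 units at P2 and 4337 and 4606 units in the adult (2.69-fold lower) and Rtp4 293 and 258 against 736 and 778 units. Of the membrane proteins that block virus entry, Ifitm3 at 1276 and 1441 units at P2 and 231 and 289.9 units in the adult (5.24-fold higher) and Ifitm1 at 3296 and 3489.7 against 591 and 776 units were higher, and Ifitm2 at 2917 and 3179 against 2041 and 2574 units was not called, except without adult pool 2 (log2 difference 0.58). Ifi27 was higher at 1642 and 1769 against 433 and 416 units. Herc6, a ligase of the interferon response, was at least 2.65-fold lower at 74.7 and 94.1 against 231 and 305 units. The regulators Irf1, Irf8, Irf9 and Stat2 were not called, Stat2 being lower on another probe set. Irf7 was lower (log2 difference -0.45), a call lost without either P2 pool or adult pool 2 (-0.46 to -0.42).

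Of 22 genes of complement and coagulation 16 were higher and 5 lower (median 1.26). C3, the hub of the complement cascade, was at background in the newborn, at 17.5 and 23.7 units, and read 496 and 561 units in the adult (at least 5.28-fold lower, adjusted p = 0.000866), whereas the proteases that start the cascade were higher, with C1s at 1610.1 and 1532 units at P2 and 287 and 394 units in the adult (4.67-fold higher) and C1r at 4521 and 4238 against 1999 and 1953 units. Coagulation factor V, F5, which the plexus epithelium makes, read 1634 and 1559 units at P2 and 17613 and 16746 units in the adult (10.8-fold lower, adjusted p = 6.86e-05). Serpinf1, known also as PEDF, an antagonist of vessel growth, was 5.45-fold higher at 552 and 512 against 91.7 and 104 units. Masp1, a protease of the lectin pathway, was at least 3.12-fold higher at 358 and 272 against 63.6 and 56.6 units, and the fibrinogen chain Fgg at least 3.28-fold higher at 415 and 259.7 against 80.4 and 60.4 units.

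Epithelial markers were present at P2, while a set of epithelial products was still below the adult. Of 34 tested markers of the choroid plexus epithelium 5 were higher and 19 lower, with a median of -0.39. Their summed level was 227055 and 219085 units at P2 against 304436 and 296788 in the adult. The list was written with earlier results of these data known. It holds genes that lay far below the adult, such as Abca4, Prlr, F5 and Kcna1, so its counts may in part follow from that choice. The defining markers were far above background in both stages, as the tissue label requires: transthyretin, Ttr, read 12702 and 10837 against 14847 and 11640.1 units, the folate receptor Folr1 14326 and 13864 against 14836 and 13533 units and the aquaporin Aqp1 9706 and 9552 against 8379 and 8706 units, none of them called on these probe sets, though another probe set of Aqp1 was higher. The transcription factor Otx2, on which the plexus depends, read 11278 and 11174 against 10059 and 10449 units and was not called, though its other probe set was higher. Of 21 tested transcription factors of plexus identity 7 were higher and 3 lower, shares near or below the background. Hnf4a, a nuclear receptor better known from liver, read 19.4 and 27.2 units at P2 and 536 and 610.0 units in the adult (at least 5.72-fold lower, adjusted p = 0.000572). Msx1 was 1.52-fold lower at 9603 and 9016 against 14669 and 13645 units, and Gmnc, which starts the multiciliated cell program, 3.85-fold higher at 1618 and 1898 against 473 and 438 units.

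The products that were low at P2 were led by Abca4, a retinoid flippase known from photoreceptors, at 86.5 and 76 units at P2 and 3711 and 3522 units in the adult (at least 36.2-fold lower, adjusted p = 6.27e-05). The prolactin receptor Prlr read 939.8 and 1091 units at P2 and 15269 and 16148 units in the adult (15.5-fold lower, adjusted p = 0.000112), lower on all 3 of its tested probe sets. Klotho, Kl, which the plexus sheds into CSF, read 829 and 918 units at P2 and 2971 and 2574 units in the adult (3.17-fold lower). Each of them was low in both newborn pools, without overlap. Krt8, a keratin of simple epithelium, and the secreted Ecrg4 were higher at P2, Ecrg4 at 7093 and 6838 against 3375 and 3343 units (2.07-fold higher). The 5 higher markers were 3 without P2 pool 1 or with each array centred on its median.

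Of 39 genes of ion and water transport 22 were lower and 8 higher (median -0.49), the latter 5 without P2 pool 1. CSF secretion runs on the sodium pump of the apical membrane, bicarbonate carriers and carbonic anhydrase. The potassium channel Kcna1 was at background in the newborn, at 1.91 and 2.55 units, and read 923 and 1056 units in the adult (at least 9.87-fold lower). The pump subunit Atp1b2 read 640.5 and 621 units at P2 and 3027 and 3156 units in the adult (4.9-fold lower), while Atp1b1, which pairs with the same catalytic subunit, was 1.62-fold lower at 10418 and 9903 against 16571 and 16423 units. The bicarbonate carriers Slc4a10 and Slc4a2 read 4395 and 3831 against 10629 and 12100.3 units and 1608 and 1452 against 4477 and 4248 units, 2.76-fold and 2.85-fold lower. The cotransporter Slc12a2 was 1.44-fold lower and the carbonic anhydrase Car2 1.33-fold lower. Clcn4, a chloride and proton exchanger of endosomes, was 3.01-fold lower at 243 and 254 against 720.2 and 779 units. Of the genes that were higher, Car8, a relative of carbonic anhydrase without its activity, led at 339.6 and 396 against 41.3 and 25.1 units (at least 3.67-fold higher). Clic4 and Slc4a4 went the other way, at 2270.2 and 2348 against 833 and 854 units and 445 and 438 against 261 and 174 units, and the kinase Stk39, which sets cotransporter activity, was not called at 15229.8 and 14207 against 14040.1 and 13909.7 units, though its other probe set was higher.

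Secreted proteins of the CSF were divided, 9 of 26 being higher and 8 lower, or 8 and 12 with each array centred on its median. Clu read 18059.7 and 16428 against 21224 and 18537 units and Cst3 18217 and 15942 against 21930.0 and 18805 units, both not called. Apoe, a lipid carrier, was 2.85-fold higher at 3527 and 3548 against 1254 and 1232 units, and the copper carrier Cp 3.3-fold higher at 1238 and 1011 against 370.1 and 311 units, whereas the cobalamin carrier Tcn2 was 2.04-fold lower at 2374 and 2465 against 5118 and 4756 units and Gas6, the ligand of TAM receptors, 1.92-fold lower at 6079.6 and 5287 against 11032 and 10778 units. Adm, the vessel-relaxing peptide adrenomedullin, was at least 4.01-fold higher at 314 and 511 against 71.7 and 82.9 units. Receptors for hormones and transmitters were likewise divided, 8 of 22 higher and 7 lower, or 8 and 11 with each array centred on its median, the 7 falling to 4 without adult pool 1. Agtr1a, the main angiotensin receptor, read 887 and 1179 units at P2 and 11.8 and 7.02 units in the adult (at least 10.2-fold higher, adjusted p = 0.000126). The retinoic acid receptor Rarb read 990.5 and 939.9 units at P2 and 167 and 195 units in the adult (5.34-fold higher) and the parathyroid hormone receptor Pth1r 515 and 459 units at P2 and 22.7 and 58.7 units in the adult (at least 4.86-fold higher). Adora2b, an adenosine receptor, was at least 3.88-fold higher at 349.8 and 429.8 against 68.9 and 48.5 units. Both P2 pools lay above both adult pools in all 4. The thyroid hormone receptor Thra and the mineralocorticoid receptor Nr3c2 were lower, at 333 and 345 against 603 and 668 units and 521 and 501 against 826 and 790.0 units, and the serotonin receptor Htr2c, the classic receptor of the tissue, was not called at 15221 and 14639.6 against 17626 and 17419.8 units, though lower on its other probe set.

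Genes of the motile cilium, the beating tufts of the plexus epithelium, were higher at P2 than in the adult. Of 32 tested 21 were higher and 1 lower (median 0.67), the lower one, Rsph9, losing its call without any 1 of the 4 arrays. With each array centred on its median, 17 were higher and 3 lower. Ccno, a cyclin-like protein needed to multiply centrioles, read 831 and 1065 units at P2 and 7.87 and 14.5 units in the adult (at least 9.41-fold higher, adjusted p = 0.00018), with the adult at background. Tppp3 read 2606 and 2509 units at P2 and 279 and 236 units in the adult (9.95-fold higher), the assembly factor Dnaaf1 717 and 775 units at P2 and 172 and 148 units in the adult (4.67-fold higher) and the axoneme protein Cfap45 906 and 844 against 264 and 195 units. None of these stages overlapped. The structural gene Tekt1 was not called at 3700.2 and 3418 against 3208 and 3129 units, and the master regulator Foxj1 was not called at 5728 and 5578 against 4798 and 4984 units. By symbol stem, list members included, Cfap, of cilia and flagella associated proteins, had 12 of 19 genes higher and 1 lower.

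Regulatory factor X (RFX) proteins bind ciliary genes at palindromes built of GTTGCC or GTTACC. Such a motif, on either strand, stood in 14 of the 28 ciliary promoters in the table, against 18.6% of those of tested genes and 18.4% of all, with no test. The promoters of Ccno (chr2:46363824-46364123, plus strand) and Cfap45 (chr13:87521581-87521880, plus strand) are shown with these motifs in capitals, since both genes lay far above the adult.
Ccno: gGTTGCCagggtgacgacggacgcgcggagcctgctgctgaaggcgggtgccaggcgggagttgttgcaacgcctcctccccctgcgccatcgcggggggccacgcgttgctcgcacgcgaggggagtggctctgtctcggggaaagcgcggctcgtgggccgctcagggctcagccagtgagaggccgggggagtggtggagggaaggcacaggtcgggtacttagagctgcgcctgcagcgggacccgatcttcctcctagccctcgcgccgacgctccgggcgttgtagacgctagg
Cfap45: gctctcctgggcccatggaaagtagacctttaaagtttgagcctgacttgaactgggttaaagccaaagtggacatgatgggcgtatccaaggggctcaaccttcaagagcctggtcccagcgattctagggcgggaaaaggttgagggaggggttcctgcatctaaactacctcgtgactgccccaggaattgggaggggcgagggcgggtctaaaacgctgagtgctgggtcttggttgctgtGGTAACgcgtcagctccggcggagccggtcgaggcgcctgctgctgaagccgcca
Both sequences are from RefSeq on GRCr8, 250 bases before to 50 after the start.

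Lipid synthesis was the metabolic list with the lowest median. Of 37 genes of cholesterol and fatty acid synthesis and their regulators 26 were lower and 2 higher (1 without P2 pool 1, and 0 with each array centred on its median), with a median of -0.78, and lower genes outnumbered higher ones under every scaling tried. The desaturase Fads2 read 455 and 488 units at P2 and 1841 and 2016 units in the adult (4.09-fold lower, adjusted p = 0.000186). In the sterol branch, Cyp51 read 726 and 770.0 units at P2 and 2563 and 2519 units in the adult (3.4-fold lower) and Idi1, which makes the isoprene unit, 1895 and 2383 units at P2 and 5837 and 6558 units in the adult (2.91-fold lower). Both newborn pools were low in all 3. The regulator of fatty acid synthesis Srebf1 read 1519 and 1511 against 3920.2 and 4435 units, its sterol-sensing retainer Insig1 1190.1 and 1235 against 1985 and 2423 units, and the cholesterol exporter Abca1 1309.8 and 952 against 2921 and 2583 units. Fasn and Scd2 were 2.11-fold and 1.93-fold lower. Of the higher genes, Soat1, which stores cholesterol as esters, read 1136 and 1041 against 773 and 789.9 units. Sqle, Dhcr7, Mvk and Acaca, enzymes of the same routes, were not called.

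Energy metabolism differed by smaller steps. Of 35 complex I genes 14 were lower and 1 higher (median -0.26), and of 37 genes of complexes II to V 10 were lower and 1 higher (median -0.24). The share lower in complexes II to V was near the background of 22.5%. With each array centred on its median, 29 and 34 were lower, and the complex I count was 7 without P2 pool 1, 9 without P2 pool 2 and 7 without adult pool 1. The catalytic subunits Ndufs1 and Sdha differed most in their lists, at 3219 and 3218 units at P2 and 6599 and 6403 units in the adult (2.02-fold lower) and 3175 and 3127 units at P2 and 5577 and 6086 units in the adult (1.85-fold lower). Of 42 genes of the citric acid cycle and fatty acid oxidation 18 were lower and 6 higher, the latter 2 without P2 pool 1 or either adult pool, and 31 and 2 with each array centred on its median. Esrra, a nuclear receptor that drives mitochondrial genes, read 381 and 415 units at P2 and 1303 and 1517 units in the adult (3.54-fold lower), and Ogdh, a gatekeeper of the cycle, 1805 and 1634 against 4338 and 4326 units. Pdk2, a kinase that shuts the entry of pyruvate into the cycle, was 2.49-fold lower at 416 and 449 against 1006 and 1147 units. Acaa2, of fatty acid oxidation, ran the opposite way at 4803 and 4372 against 1788 and 1673 units. Of 26 genes of glycolysis 11 were lower and 4 higher, or 17 and 2 with each array centred on its median. Among the lower ones were Pfkm, Aldoc and the hexokinase Hk1, isoforms typical of muscle and brain. Pfkm read 562 and 711 units at P2 and 2247 and 2212 units in the adult (3.53-fold lower). Aldoc read 721 and 555 against 1779 and 1836 units and Hk1 891 and 862 against 2046 and 2124 units. Aldoa, Eno1 and Gpi were lower by smaller steps (log2 differences -0.51, -0.34 and -0.37). The call of Eno1 was lost without any 1 of the 4 arrays, that of Gpi without either P2 pool or adult pool 2. Tpi1, Ldha and Ldhb were not called. The lactate exporter Slc16a3 was 1.86-fold higher at 719.7 and 884 against 409 and 447 units, and Pfkfb2, which makes an activator of glycolysis, 2.54-fold lower at 297 and 302 against 923 and 629 units.

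**Figure D5:**
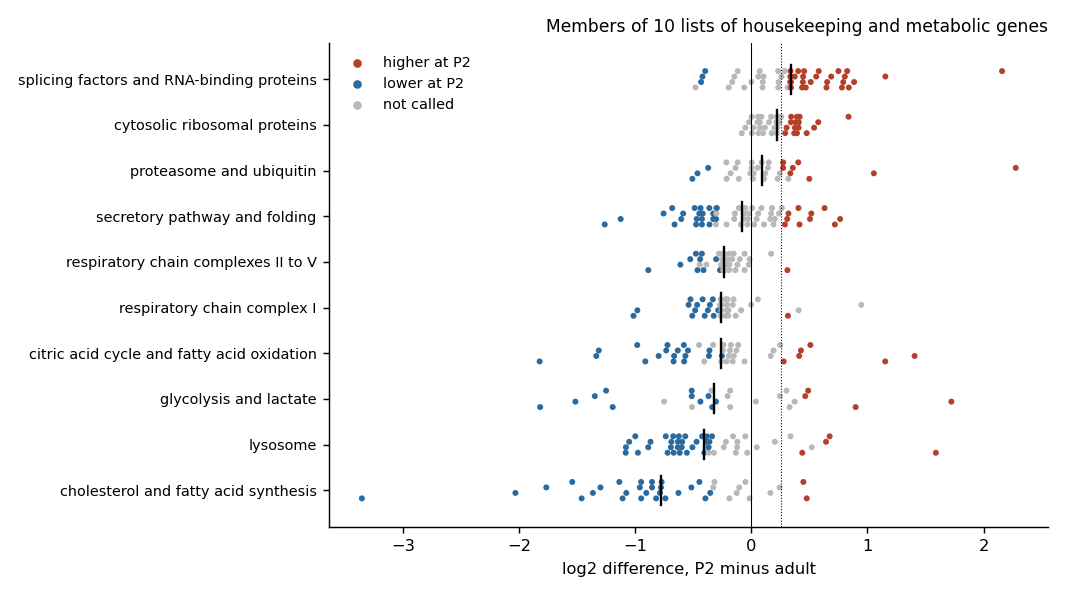
Log2 difference, P2 minus adult (horizontal axis), of each member of 10 lists, 1 point per gene coloured by its call, with a vertical bar at the list median, a solid line at 0 and a dotted line where 0 would fall with each array centred on its median. Ribosomal and splicing genes lie near or to the right of the lines, cholesterol and lysosome genes to the left.

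The lysosome, in which cells break down what they take up, had more genes lower than higher. Of 49 tested 30 were lower and 4 higher (median -0.40), and lower genes outnumbered higher ones under every scaling tried. With at least a 2-fold difference asked for, 3 were lower. Without any 1 of the 4 arrays fewer were called lower, with medians of -0.48 to -0.40. Asah1, which breaks down ceramide, read 3167 and 3279.9 units at P2 and 6513 and 7143 units in the adult (2.12-fold lower). Ppt1, which removes fatty acids from proteins, read 2238 and 2159 against 4315 and 4335 units. Of 15 listed genes of the proton pump that acidifies the organelle (Atp6) 9 were lower (7 or 8 without 1 array), such as Atp6ap1, 2.11-fold lower, and Atp6v1a, 1.53-fold lower, and the other 6 were not called. Of the 4 that were higher, Ctsk, a collagen-degrading protease of osteoclasts and fibroblasts, read 1136 and 1085 against 383 and 356 units. The stem Atg, of autophagy, had 8 of 16 genes lower and 2 higher.

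Genes of RNA processing were more often higher than lower, by small amounts. Of 48 splicing factors and RNA-binding proteins 27 were higher and 3 lower (median 0.34), or 13 and 5 with each array centred on its median. Without any 1 of the 4 arrays fewer were called higher, with medians of 0.34 to 0.38. The 3 lower ones were 1 without P2 pool 1 or adult pool 2 and 0 without P2 pool 2. Of 40 ribosomal protein genes 16 were higher and 0 lower, with a median of 0.22, which is within the range that scaling moves: with each array centred on its median 2 were higher and 3 lower. Without P2 pool 1, P2 pool 2, adult pool 1 and adult pool 2 the count of higher ribosomal genes was 6, 6, 8 and 10. Cirbp, the cold-inducible RNA-binding protein, read 2189 and 2103 units at P2 and 503 and 459 units in the adult (4.47-fold higher, adjusted p = 0.000181). Hnrnpa1 and Snrpb, of splicing, read 4450.2 and 4157 against 2558 and 2304 units and 4358 and 4604 against 2724 and 2497 units. Genes of the secretory pathway were 21 lower and 10 higher of 58, which fell to 8 lower without adult pool 2 and to 4 higher without P2 pool 1 or adult pool 2, and turned to 31 lower and 2 higher with each array centred on its median. The signal peptidase subunit Sec11c read 3029 and 3490.1 units at P2 and 7369 and 6823 units in the adult (2.18-fold lower), and the chaperone Hspa5 12645 and 12412 against 17359 and 17481 units. Of 31 proteasome genes 8 were higher and 3 lower, and of 36 genes of ribosome making and translation 10 and 5, shares near or below the background. With each array centred on its median these counts turned to 2 and 9 and to 4 and 13. Uchl1, a ubiquitin hydrolase of neurons and progenitors, was at least 2.3-fold higher at 214 and 248 against 55.3 and 40.9 units, and the core subunit Psma3 2.08-fold higher at 2439 and 2349 against 1139 and 1165 units. Gar1, which guides the modification of ribosomal RNA, read 838 and 726 against 321 and 428 units. Without adult pool 2 the higher proteasome genes were 2, and without P2 pool 2 the higher genes of ribosome making were 5.

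Iron leaves cells through the exporter ferroportin, helped by copper ferroxidases, and enters them with transferrin. Among 22 genes of iron and copper 8 were higher and 5 lower, shares near the background, or 7 and 9 with each array centred on its median. The ferroxidase Heph, which lets iron leave cells, read 1467 and 1306 units at P2 and 206 and 234 units in the adult (6.3-fold higher), and the iron exporter Slc40a1 1264 and 1158 against 343 and 423 units. The metallothionein Mt2A was 4.39-fold higher at 1022 and 1117 against 259 and 229 units. Transcripts of the transferrin receptor Tfrc, at 306 and 266 against 441 and 545 units, and of its partner Hfe, at 833 and 834 against 1737 and 1717 units, were 1.72-fold and 2.07-fold lower.

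Of 18 markers of neural progenitors with a probe set only 9 reached a mean of 100 units in either stage, 7 of them higher and 0 lower. Their summed level was 14882 and 12328 units at P2 and 3369 and 3588 in the adult, Vim, which mesenchyme shares, being a member. Prom1, a stem cell surface protein that ciliated epithelium also carries, read 1859.7 and 1627 units at P2 and 179 and 174 units in the adult (9.87-fold higher), and Fabp7, the lipid-binding protein of radial glia, 848 and 537 units at P2 and 97.1 and 44.4 units in the adult (at least 6.75-fold higher). Nes, nestin, read 324 and 288 against 54.2 and 70.6 units. The glutamate carrier Slc1a3 was 4.03-fold higher at 1132 and 812 against 280.0 and 202 units. Of 29 neuron markers with a probe set 17 stayed under 100 units in both stages, and of the 12 tested 3 were higher and 2 lower, the latter 1 without either P2 pool, or 2 and 3 with each array centred on its median. Of 14 markers of astrocytes and ependyma 5 were higher and 2 lower, or 5 and 4 with that centring. Of 10 tested genes of oligodendrocytes and myelin 4 were higher and 4 lower, or 3 and 5 with each array centred on its median. Mbp and Mobp, among the lower ones, were uneven between the adult pools. Mbp read 77 and 5.76 units at P2 and 1989 and 656 units in the adult. Mobp read 14.5 and 0.812 units at P2 and 375 and 136 units in the adult, pool 1 far above pool 2 for both. Without adult pool 1 neither kept its call (log2 differences -4.96 and -5.31), the call of Mobp also being lost without P2 pool 2 or adult pool 2 (-3.96 and -6.77), and the 4 lower of 10 myelin genes were 1. The lasting one was Mal, a lipid raft protein of myelin and of epithelia, at 63.2 and 96.3 against 403 and 311 units (at least 3.54-fold lower). Pmp22, a myelin protein of peripheral nerve that fibroblasts make too, was 7.65-fold higher at 4003 and 3709.8 against 504 and 504 units. Gja1, the connexin of astrocytes and of stroma, was 8.38-fold higher at 7138 and 5293 against 793 and 679 units, and Aldh1l1 lower at 123 and 59.6 against 712 and 629 units.

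Guidance cues and their receptors, which steer axons, vessels and mesenchyme alike, were 17 higher and 4 lower of 29. The transmembrane semaphorin Sema6d read 2464 and 2619.6 units at P2 and 327 and 296 units in the adult (8.17-fold higher) and Sema6a 394 and 326 units at P2 and 28.3 and 49.2 units in the adult (at least 3.59-fold higher). Efnb3, an ephrin, read 485 and 480.3 against 105 and 67.9 units. Slit2, a repellent that the plexus secretes into CSF, was 1.82-fold lower at 1408 and 1199.7 against 2479.7 and 2266 units. Plxnd1, a semaphorin receptor of vessels, was 1.79-fold lower at 265 and 199.6 against 389 and 436 units.

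Genes that respond to the hour, to handling and to stress are given because the hour of dissection is not stated in the sources used here. Of 19 clock genes 6 were higher and 5 lower, shares near the background, or 5 and 10 with each array centred on its median. Per2 read 1168 and 729 units at P2 and 294 and 319 units in the adult (3.01-fold higher) and its activator Clock 690.5 and 593 units at P2 and 1316 and 1332 units in the adult (2.07-fold lower). Nfil3, a repressor in the clock, was 3.29-fold higher at 314 and 395 against 125 and 91.3 units, and Bhlhe40, another, at least 2.82-fold lower at 87.6 and 97 against 365 and 218 units. Of 26 immediate early and heat shock genes 12 were higher and 8 lower. Klf2 and Klf4, which endothelium also uses under flow, read 589.6 and 738 against 101 and 130.4 units and 646 and 592 against 150.2 and 136 units, and Egr1 421 and 820.4 against 132 and 98.1 units. Klf6 was at least 4.18-fold higher at 427 and 409.9 against 94.2 and 93.5 units, and the stress kinase Sgk1 2.4-fold lower at 2874 and 2320.4 against 6464 and 5928 units. Cdkn1a, the inhibitor that holds cells out of the cycle, was 2.71-fold lower at 1356 and 1396 against 3414 and 4079 units, and the small heat shock protein Hspb1 2.22-fold lower. Their part in the results was not tested.

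Sex also differed between the stages. Xist, the noncoding RNA of the inactive X chromosome that females make, read 1097 and 1608 units at P2 and 3.35 and 0.934 units in the adult (at least 13.3-fold higher), so that the P2 pools included female pups, and the adult pools were at background as befits males. The Y-linked Eif2s3y read 1152 and 481 against 2077 and 2325 units, a call that was lost without P2 pool 2, adult pool 1 or adult pool 2 (log2 differences -1.64 to -0.93). What sex had to do with any autosomal difference was not tested, and stage and sex cannot be told apart in these pools.

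Several of the greatest differences lay in genes outside all lists. S100a11, a calcium-binding protein of the cell cortex, read 7306 and 6821 units at P2 and 187 and 141 units in the adult, the largest fold among called genes read at or above 100 units in both stages, at 43.5-fold higher (log2 5.44, SE 0.18, adjusted p = 8.22e-05). Pcdh18, a protocadherin, read 2244 and 2218 units at P2 and 63.9 and 72.1 units in the adult (at least 22.3-fold higher) and Cks2, a partner of Cdk1, 1865 and 2258 units at P2 and 63.9 and 70.4 units in the adult (at least 20.5-fold higher). The membrane protein Emp1 read 3357 and 3652 against 150.4 and 185 units, and Gpc3, a glypican that restrains fetal growth, 2433 and 2216 against 93 and 133 units. Itga8, an integrin of mesenchyme, read 2191 and 1836 against 103 and 99 units, and Cav1, the coat protein of caveolae, 1569.5 and 1580.3 against 122 and 149 units. Txnip, an inhibitor of thioredoxin that answers to glucose, read 7591 and 7445 units at P2 and 567 and 661 units in the adult (12.3-fold higher). Tmsb4x, which sequesters actin, was 2.65-fold higher at 16532 and 15853 against 5941 and 6297 units, and the lens crystallin Crygb, at background in the adult, read 1242 and 1397 units at P2.

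The genes furthest below the adult outside the lists were more varied. Adipoq, the fat cell hormone adiponectin, read 67.7 and 54.3 units at P2 and 3501 and 3616 units in the adult (at least 35.6-fold lower, adjusted p = 8.22e-05), and Cox8b, the muscle and brown fat isoform of a cytochrome oxidase subunit, 22.7 and 74.2 units at P2 and 3416 and 3580.4 units in the adult (at least 35-fold lower). Cltrn, collectrin, a chaperone of amino acid carriers, read 874 and 923 units at P2 and 12109 and 11579.8 units in the adult (13.2-fold lower), and Scgb1c1, a secretoglobin, 722 and 844 against 8474 and 8444 units. These 4 were low in both newborn pools and between 3416 and 12109 units in the adult. Pools that did not overlap were a condition of their choice. Acsl6, which activates fatty acids, read 225 and 218 against 3308 and 3343 units, and Pon1, a lactonase of lipoproteins, 160.5 and 209 against 2361 and 2610.2 units. Tuba4a, a tubulin isotype, was 9.74-fold lower at 292 and 382 against 2975 and 3555 units. Slc6a20a, a proline carrier, was 10.6-fold lower and lower on both of its probe sets, and Sorl1, a sorting receptor that binds the amyloid precursor, was lower on all 7 of its tested probe sets, reading 557 and 488 against 3053 and 3225 units on the brightest. Ppp1r1a, an inhibitor of protein phosphatase 1, was 5.37-fold lower at 2650.5 and 2017 against 12756 and 12079 units, and the sulphate carrier Slc13a4 3.3-fold lower at 3782 and 3766 against 12653 and 12239.5 units.

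By symbol stem, collagens (Col) had 23 of 30 genes higher and 4 lower at P2, Krüppel-like factors (Klf) 8 of 13 and 3, tetraspanins (Tspan) 8 of 15 and 4, and the Lsm proteins of RNA processing 6 of 12 and 0. On the other side stood the RT1 genes of the histocompatibility complex (RT) with 12 of 15 lower and 2 higher, and the ATPases and ATP synthase subunits (Atp) with 27 of 57 lower and 8 higher.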

How the data were processed

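Choroid plexus RNA was amplified from 100 ng with a 3′ kit and hybridised to Affymetrix rat arrays, 2 per stage at embryonic day 19, P2 and adult. The submitters' processing notes name Expression Console and MAS5, without versions. The deposited values are the authors' MAS5 intensities on a linear scale, already scaled per array. The study used rats from different suppliers, and which pool came from which is not given in the sources used here. Nothing in the labels says whether pools shared a day, so p-values measure the spread between these pools.

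Control probe sets were left out, and the others were kept where P2 or adult averaged 100 units or more. Their log2 values, computed from the deposited intensities, entered a linear model (limma 3.58.1, R 4.3.3) over all 6 arrays with 1 mean per stage. The embryonic arrays only added to the estimate of the spread. P-values were adjusted by the Benjamini-Hochberg method over all 17341 probe sets, and called under 0.05. Of 31042 probe sets other than controls, 20832 had 1 gene symbol, 436 several and 9774 none. Each gene was read from the brightest of its probe sets over the 4 arrays. Medians of lists are of log2 differences. Promoters were read from RefSeq tables on GRCr8.

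The members and the gene lists were chosen with earlier results of these data known. Named genes were list members, led by those with the greatest differences in each direction after raising values to 100 units, then those that went against their list. Outside the lists, the 25 per direction with the greatest such differences were taken among called genes whose stages did not overlap. Others came from the 15 brightest called genes per direction with at least a 2-fold difference. Symbol stems came from those with at least 12 tested genes. The fit was tested on simulated data. Alternatives were other filters on low intensity, other scalings, a floor or an added constant, other variance models, a replicate block, a fold threshold, the mean of a gene's probe sets and leaving out each array.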

Additional observations from a re-analysis of the deposited data

How the results depend on the processing

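The balance of higher and lower calls depended most on the scale. With each array centred on its median, 3134 probe sets were higher and 6503 lower, and 1932 genes higher and 3826 lower. Without the filter on low values the lower probe sets fell to 2277 and the lower genes to 1235, and with at least a 2-fold difference asked for, 2143 probe sets were higher and 1074 lower, and 1343 genes higher and 576 lower. Leaving out each array in turn gave 3663 to 4188 higher and 2847 to 3355 lower probe sets, and 2254 to 2562 higher and 1607 to 1917 lower genes, each within 1.5 times the count over all arrays. The other alternatives also stayed within it. Samples of the same number did not deviate together (correlations -0.06, -0.04 and 0.00), so the numbers pair no samples, and with a replicate block 4425 probe sets were higher and 3539 lower, and 2716 genes higher and 2042 lower. No called named gene turned to the opposite direction under any alternative that was run. With each array centred on the median of the tested probe sets, which was chosen after the data had been seen, 2479 genes were higher and 2896 lower. Genes read under 100 units in a stage lie near background there, and their folds are bounds.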
